A study of Mus musculus with 26 samples.

Results

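The 45 genes described here encode nuclear subunits of the mitochondrial oxidative phosphorylation machinery, among them 4 tissue isoforms of complex IV. They were taken by name from the table of FPKM values (fragments scaled to transcript length and to mapped reads), in which all 45 were found among 52454 gene symbols: 17 subunits of complex I, 4 of complex II, 6 of complex III, 14 of complex IV and 4 of complex V. Ndufa4, long listed under complex I, was counted with complex IV. The list goes by gene names and not by a threshold on the values.

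The study asked which parts of the genome DNMT3A and DNMT3B, the enzymes that add new methyl groups to DNA, each methylate in the developing mouse, with gene expression measured alongside. RNA was sequenced in 10 libraries, 1 for each condition. Heart and liver came from male C57BL6 embryos at E14.5, either WT or labelled Dnmt3a KO, from crosses of mice heterozygous for the tm1Enl allele of Dnmt3a. The strain name of these mice in the paper holds both B6 and 129S4. Both WT organs carry the number 4 in their titles and both organs labelled Dnmt3a KO carry the number 25. Mouse embryonic fibroblasts (MEFs) from the same crosses, also male C57BL6 at E14.5 and passage 1, were WT or labelled Dnmt3a KO and were treated with GSK126, an inhibitor of the histone methyltransferase EZH2, or with its solvent DMSO. The 2i-MEFs were female fibroblasts of E14.5 chimaeric embryos, made from F1 ES cells (129X1/SvJ × MSM/Ms) kept in 2i/L medium in which Dnmt3a or Dnmt3b had been deleted with CRISPR. Host cells were removed from them by GFP sorting and G418. No WT counterpart of the 2i-MEFs was used here.

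The respiratory chain passes electrons from NADH through complex I, or from succinate through complex II, to ubiquinone, complex III, cytochrome c and finally to oxygen at complex IV. The protons pumped on the way drive complex V, the ATP synthase. Some subunits of complexes I, III, IV and V are encoded by mitochondrial DNA and the rest by nuclear genes, and heart muscle is rich in all of them. For several complex IV subunits mammals carry a form used in most tissues and a paralogue used in striated muscle or another tissue.

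By estimate, the libraries held between 9174312 reads (2i-MEFs without Dnmt3b) and 26225976 reads (WT liver). All 13 cardiomyocyte markers were at least 2-fold higher in WT heart than in WT liver, all 10 hepatocyte markers were at least 2-fold lower, and all 10 fibroblast markers were at least 2-fold higher in WT MEFs than in either WT organ. The liver libraries also held blood cell RNA: 9 erythroid markers summed to 97000 FPKM in WT liver and 131000 FPKM in the liver labelled Dnmt3a KO, against 27100 and 18500 FPKM in the heart libraries. Dnmt3a itself followed the genotype labels in liver, where WT had 53.5 FPKM and the labelled library 12.7 FPKM. In 2i-MEFs it was 4.21 FPKM in the Dnmt3a KO and 23.9 FPKM in the Dnmt3b KO. It went against the labels in heart, where WT had 55 FPKM and the labelled library 125 FPKM, and in MEFs, with 26.1 and 85.7 FPKM with DMSO and 19.3 and 84.5 FPKM with GSK126. These values cover the whole gene, and whether the tm1Enl allele leaves RNA was not tested. The libraries of organs and MEFs are therefore named by their label only. All 37 genes listed on mitochondrial DNA have a value of 0 throughout, so the subunits encoded there could not be described.

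By their median, the nuclear subunits were highest in heart, lower in liver and lowest in fibroblasts. The 41 genes other than the tissue isoforms had a median of 607 FPKM in WT heart and 613 FPKM in the heart labelled Dnmt3a KO. Their median was 313 and 320 FPKM in the corresponding liver libraries, between 171 and 182 FPKM in the 4 MEF libraries, and 166 and 163 FPKM in Dnmt3a KO and Dnmt3b KO 2i-MEFs. All 45 genes together took 4.07% and 4.17% of the summed FPKM in heart, 2.11% and 2.1% in liver, between 1.49% and 1.59% in MEFs and 1.41% and 1.38% in 2i-MEFs. In bulk samples, a lower share of cells that express a gene and less RNA of it in each cell cannot be told apart.

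**Figure D1:**
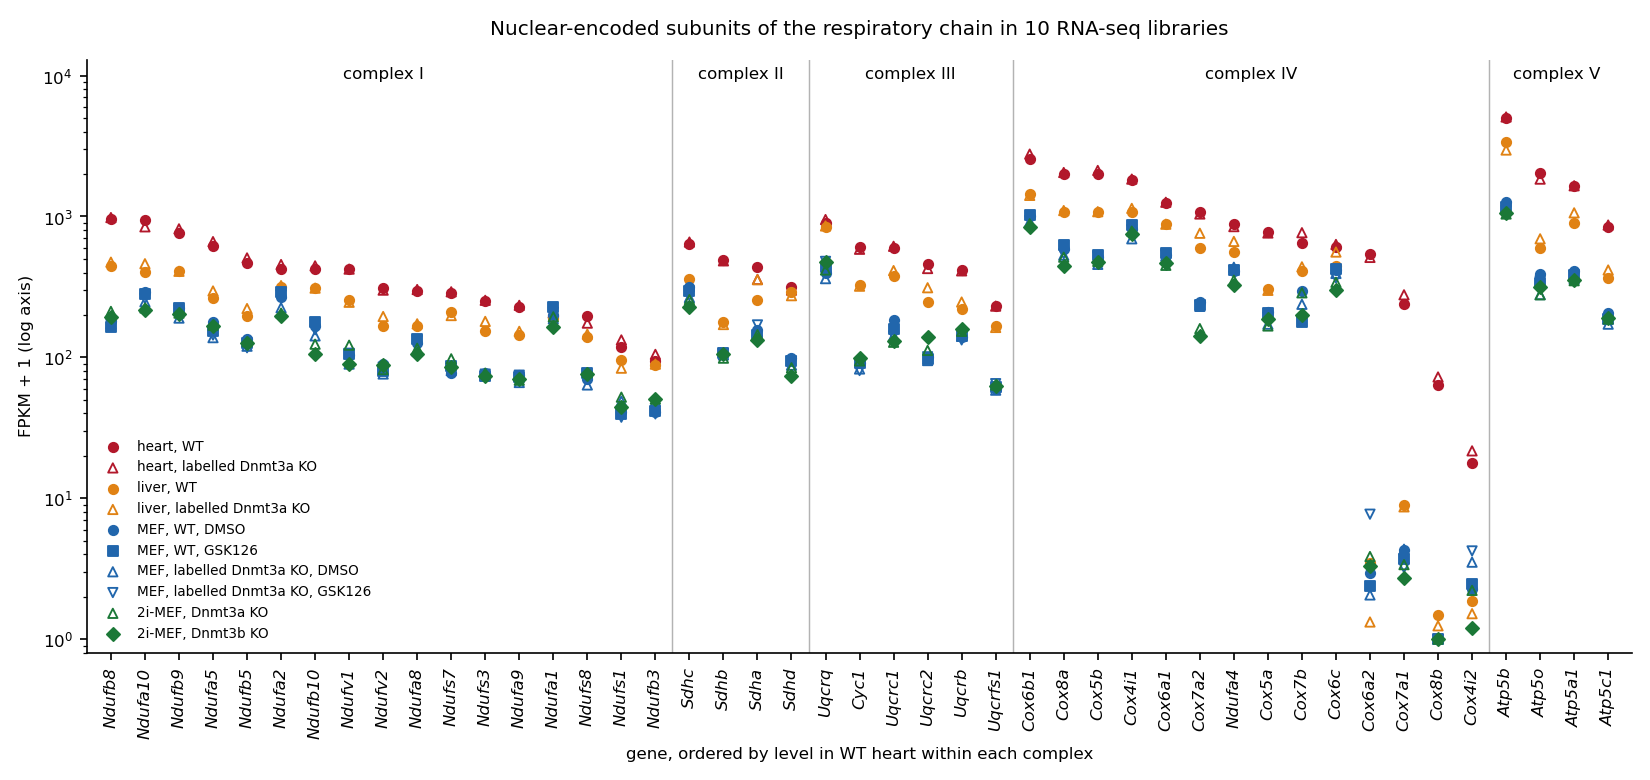
FPKM + 1 on a log axis for the 45 genes in the 10 libraries, grouped by complex and ordered by the level in WT heart; each symbol is 1 library. For 44 of 45 genes both heart libraries lie above the other 8, Ndufa1 being the exception, and the 4 tissue isoforms at the right of complex IV fall to low values outside heart.

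Both heart libraries stood above the other 8 libraries for 44 of the 45 genes. Over all 16896 genes that reached 1 FPKM in at least 1 library, 14.4% showed the same order. The exception was Ndufa1, a small X-linked accessory subunit of complex I, with 195 and 206 FPKM in heart, 189 and 205 FPKM in liver, 187 to 226 FPKM in MEFs and 193 and 163 FPKM in 2i-MEFs. Both liver libraries stood above all 6 fibroblast libraries for 42 of the 45 genes, against 31% of the 16896 genes. Here the exceptions were Ndufa1, Cox4i2 and Cox6a2. Among the 42, Cox8b rests on about 2 and 1 reads in liver against 0 in fibroblasts, so its order carries no weight. The highest of the 10 values was 1.39 times the lowest for Ndufa1, 2.11 times for Cox6c, and up to 7.65 times among the 41 genes, for Cox7a2.

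In WT heart against WT liver, the 45 genes had a median log2 ratio of FPKM + 1 of 0.83. Over all 14572 genes that reached 1 FPKM in one library or the other, the median was -0.09. At least 2-fold higher were 12 of 45, where 20.6% of all genes were higher and 21.1% lower by that much. Among genes that reached 1 FPKM in both libraries the median was -0.13, and with ratios centred on it 20 of 45 were at least 2-fold higher, against 23.4% higher and 18.2% lower of all genes. In the organs labelled Dnmt3a KO the median was 0.74, and 13 of 45 were at least 2-fold higher, against 23.7% higher and 20% lower of all genes. Centring gave 15 of 45, against 25.2% higher and 18.5% lower of all genes. The 11 genes on both lists were the 4 tissue isoforms and Atp5c1, Atp5o, Cox5a, Ndufa5, Ndufb5, Ndufb8 and Sdhb. How many of all genes were higher in both was not counted. Without the tissue isoforms, 8 of 41 genes had a ratio of FPKM of at least 2 in WT, against 18.4% of all genes that reached 1 FPKM in both libraries, so that count lies near the background. Ndufa10 was on the list of the WT organs alone, and Ndufb9 and Sdhc on the other alone.

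WT MEFs were lower still. Against WT heart, 42 of 45 genes were at least 2-fold lower, where 17.5% of all genes were lower and 18.3% higher, and the median log2 ratio was -1.76. The 3 exceptions were Ndufa1, Cox6c (418 FPKM in MEFs and 610 FPKM in heart) and Ndufa2 (267 and 426 FPKM). Against WT liver, 17 of 45 genes were at least 2-fold lower and none higher, where 24.4% of all genes were lower and 23.9% higher, and the median log2 ratio was -0.85. With centred ratios 12 of 45 were lower, against 22.2% lower and 25.8% higher of all genes, so the count lies near the background. Cyc1, Sdhd and Uqcrfs1 had the lowest ratios to liver, at -1.83, -1.56 and -1.49 on the log2 scale. WT heart and WT liver each enter more than 1 of these comparisons, and MEFs had grown in culture whereas the organs had not, so cell type and culture cannot be told apart.

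**Figure D2:**
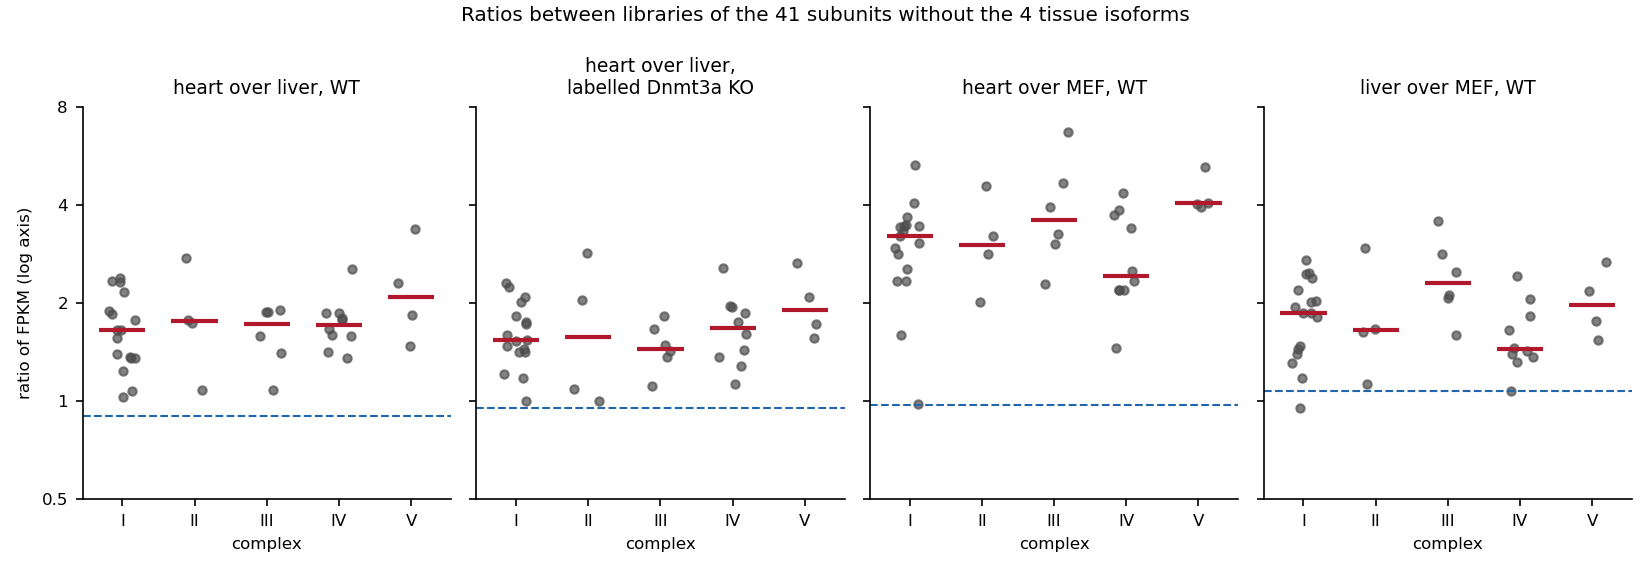
Ratio of FPKM between 2 libraries on a log axis for the 41 genes without the tissue isoforms, by complex; each point is 1 gene, the red bar is the median of the complex and the dashed line the median over every gene that reached 1 FPKM on both sides. Median ratios of heart over liver in WT lie between 1.65 and 2.08, and those of heart over MEF between 2.42 for complex IV and 4.05 for complex V.

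Complex I, the entry point for electrons from NADH, had 17 genes here. Their median was 308 FPKM in WT heart and 126 FPKM in WT MEFs with DMSO. In WT heart the highest was Ndufb8, an accessory subunit of the membrane arm, at 958 FPKM, with 443 FPKM in WT liver and 181 FPKM in WT MEFs. The lowest was Ndufb3, also of the membrane arm, at 94 FPKM, with 87.9 and 40.2 FPKM in the others. The subunits that carry the flavin and iron-sulfur centres followed the same order of tissues. Ndufv1, which binds NADH and FMN, had 421, 255 and 103 FPKM in WT heart, liver and MEFs, and Ndufs1, the largest iron-sulfur subunit, had 118, 95.1 and 39.9 FPKM. The median ratio of FPKM between WT heart and WT liver was 1.65, and single genes ran from 1.03 for Ndufa1 to 2.38 for Ndufb5.

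Complex II, succinate dehydrogenase, also works in the citric acid cycle and is encoded by nuclear genes throughout. In WT heart its highest gene was the membrane anchor Sdhc at 636 FPKM and its lowest the membrane anchor Sdhd at 315 FPKM. The 4 genes differed in how far heart stood above liver. Sdhb, the iron-sulfur subunit, had 487 and 483 FPKM in the 2 heart libraries and 178 and 170 FPKM in the 2 liver libraries, a ratio of 2.75 in WT and 2.85 in the organs labelled Dnmt3a KO. Sdhd had 315 and 299 FPKM in heart and 291 and 273 FPKM in liver, ratios of 1.08 and 1.09. Sdhd was close to Sdhb in MEFs, however, with 98.2 and 106 FPKM in WT with DMSO. Sdha, the flavoprotein, had 439 FPKM in WT heart, 356 FPKM in the heart labelled Dnmt3a KO, 253 FPKM in WT liver and 355 FPKM in the liver labelled Dnmt3a KO, so that its ratio of heart to liver was 1.74 in WT and 1 with the label.

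Complex III hands electrons from ubiquinol to cytochrome c. Its highest gene in WT heart was Uqcrq at 905 FPKM, which was nearly as high in WT liver at 837 FPKM, and its lowest was Uqcrfs1, the Rieske iron-sulfur protein, at 231 FPKM. Cyc1, the cytochrome c1 subunit, had the highest ratio of heart to MEF among the 41 genes. It had 607 and 584 FPKM in heart and 324 and 319 FPKM in liver. In fibroblasts it had between 79.6 and 90.6 FPKM in MEFs and 93.4 and 97.3 FPKM in 2i-MEFs. WT heart stood 6.72-fold above WT MEFs. The values of heart, liver and fibroblasts did not overlap, which held for every gene of the list except Ndufa1, Cox4i2 and Cox6a2. Cycs, which encodes cytochrome c itself, gave the same order, with 247 and 232 FPKM in heart, 105 and 114 FPKM in liver and 27.3 to 34.1 FPKM in the 6 fibroblast libraries. By the ratio of FPKM, 5 of the 6 complex III genes were at least 2-fold higher in WT liver than in WT MEFs, as were 7 of 17 in complex I, 1 of 4 in complex II, 2 of 10 in complex IV and 2 of 4 in complex V. Over all 11290 genes that reached 1 FPKM in both of these libraries, the share was 23%.

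Complex V had 4 genes here. Atp5b, the catalytic beta subunit, was the highest of all 45 genes in every library, with 4970 and 5080 FPKM in heart, 3360 and 2960 FPKM in liver, 1100 to 1260 FPKM in MEFs and 1040 and 1050 FPKM in 2i-MEFs. The lowest in WT heart was Atp5c1, the gamma subunit of the central stalk, at 836 FPKM, with 362 FPKM in WT liver and 205 FPKM in WT MEFs. Atp5o, a subunit of the peripheral stalk, had 2020 and 1840 FPKM in heart, 599 and 693 FPKM in liver, 278 to 388 FPKM in MEFs and 277 and 314 FPKM in 2i-MEFs. Its ratio of 3.38 between WT heart and WT liver was the highest among the 41 genes. The annotation draws out the Atp5o locus from position 91684398 to 91931687 on chromosome 16 (mm10), and 59.1% of its longest transcript is shared at 95% identity or more with other annotated genes, so its level is uncertain.

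Among the 10 common complex IV genes, Cox6b1 was highest in WT heart at 2550 FPKM, with 1440 FPKM in WT liver and 1010 FPKM in WT MEFs, and Cox6c was lowest at 610 FPKM, with 447 and 418 FPKM. Over all 14 genes of complex IV, the tissue isoform Cox4i2 was the lowest in WT heart, at 16.8 FPKM. Without the tissue isoforms, the median ratio of WT heart to WT MEFs was 2.42 for complex IV, where the other complexes had medians between 3.02 and 4.05. With the tissue isoforms it was 3.56 over 14 genes. Cox7a2, the form of COX7A found in most tissues, was nevertheless low in fibroblasts, with 1080 and 1040 FPKM in heart, 597 and 759 FPKM in liver, 229 to 247 FPKM in MEFs and 159 and 141 FPKM in 2i-MEFs.

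The 4 tissue isoforms of complex IV set heart apart from the other samples. Cox6a2, the striated muscle form of COX6A at chr7:128205435-128206387 on the minus strand, had 540 and 511 FPKM in heart. It had 2.47 and 0.324 FPKM in liver, 1.97, 1.4, 1.06 and 6.71 FPKM in MEFs (WT with DMSO, WT with GSK126, labelled Dnmt3a KO with DMSO and with GSK126) and 2.86 and 2.28 FPKM in 2i-MEFs. Both heart values lie far above the other 8. Cox6a2 made up 30.3% and 28.9% of the summed FPKM of Cox6a1 and Cox6a2 in heart and at most 1.24% elsewhere. In estimated reads, WT heart had 4908 and WT liver 31, a ratio of 219 per depth with a 95% counting interval of 154 to 323.

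Cox7a1, the striated muscle form of COX7A at chr7:30184144-30186078 on the plus strand, had 237 and 277 FPKM in heart, 7.94 and 7.69 FPKM in liver, 2.22 to 3.35 FPKM in MEFs and 2.38 and 1.7 FPKM in 2i-MEFs. It is the tissue isoform with the most signal in liver, where both values stand above all 6 fibroblast values. Its share of the COX7A pair was 18% and 21% in heart and between 0.94% and 1.48% in the other 8 libraries, so liver and fibroblasts did not separate by share.

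Cox8b, the striated muscle form of COX8 at chr7:140898945-140900446 on the minus strand, had 62.2 and 71.6 FPKM in heart, 0.478 and 0.244 FPKM in liver, and was at 0 in all 6 fibroblast libraries. Its share of the COX8 pair was 3.02% and 3.37% in heart, so Cox8a remained the main form there at 2000 and 2050 FPKM. The liver values correspond to about 2 and 1 reads, against 188 and 176 reads in heart, and the ratio of heart to liver in WT was 130 with a 95% counting interval of 35.5 to 1080. Counting a library at 0 as 3 reads, WT heart was at least 59.5-fold higher than WT MEFs with DMSO.

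Cox4i2, the COX4 form best known from lung and from oxygen sensing, at chr2:152754173-152765037 on the plus strand, was scarce even in heart, with 16.8 and 20.7 FPKM or 0.929% and 1.11% of the COX4 pair. It had 0.87 and 0.517 FPKM in liver, 1.27, 1.47, 2.52 and 3.23 FPKM in MEFs in the order given for Cox6a2, and 1.22 and 0.205 FPKM in 2i-MEFs. Smooth muscle and pericyte markers, which mark cells that also use Cox4i2, summed to 1760 and 1380 FPKM in heart, 54.4 and 35.9 FPKM in liver and 1990 to 4690 FPKM in fibroblasts. Acta2 and Tagln carry most of that sum. Of the 11 genes, 2 were at least 2-fold higher in WT MEFs than in WT heart (Pdgfrb and Tagln). Another 3 were lower by that much (Abcc9, Cnn1 and Kcnj8), and the median log2 ratio was -0.06. Of all genes, 18.3% were at least 2-fold higher and 17.5% lower. Pdgfrb had 16.1 FPKM in WT heart and 53.7 FPKM in WT MEFs with DMSO, and Cspg4 had 23.1 and 22.1 FPKM. Abcc9 had 16.1 and 18.5 FPKM in heart and at most 0.844 FPKM in fibroblasts, and Kcnj8 had 4.17 and 4.79 FPKM in heart and at most 1.45 FPKM in fibroblasts. Their part in the levels of Cox4i2 was not tested.

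**Figure D3:**
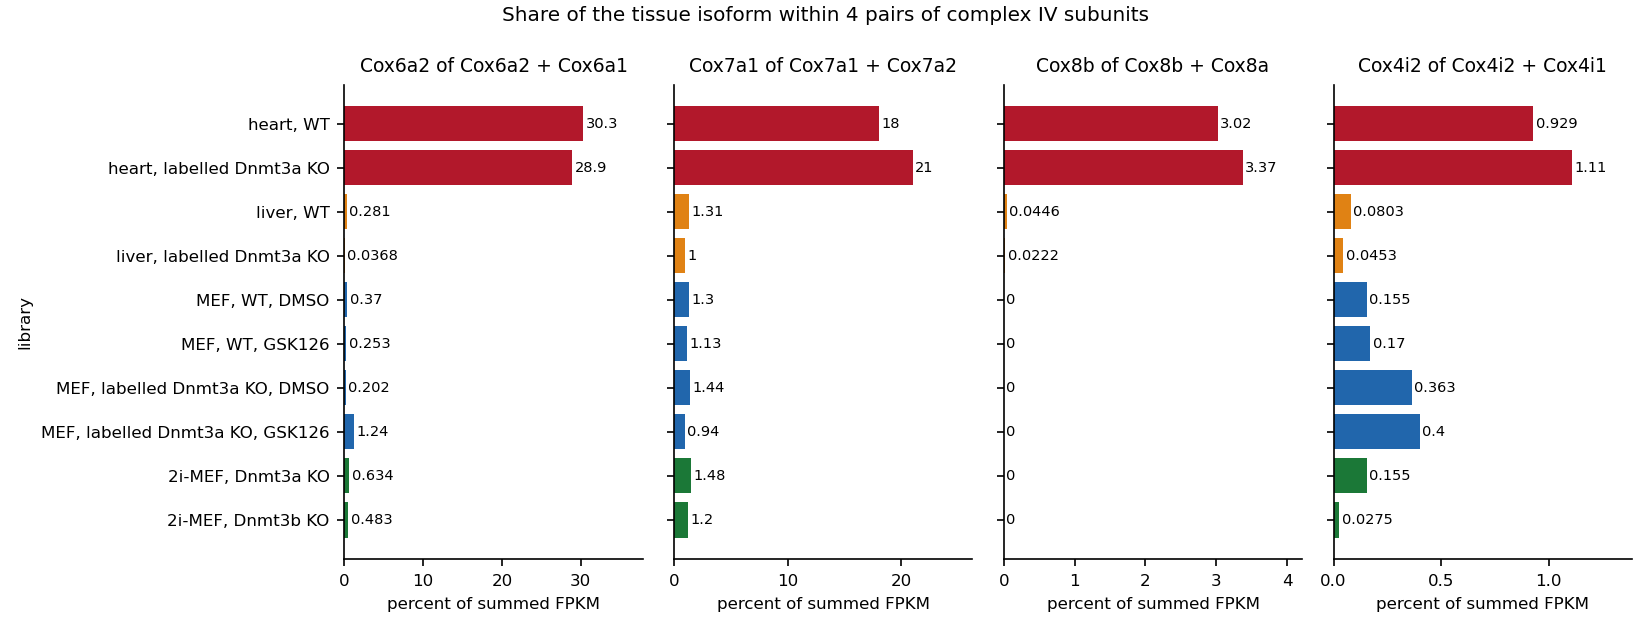
Share of the tissue isoform in the summed FPKM of each pair, in percent, for the 10 libraries; each panel has its own linear axis from 0 and each bar is 1 library. The heart bars are the longest in all 4 panels, at 28.9% and 30.3% for Cox6a2 and 3.02% and 3.37% for Cox8b, and the MEF libraries labelled Dnmt3a KO have the next highest shares of Cox4i2, at 0.363% and 0.4%.

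The 300 bases around the starts of 2 of these pairs are printed to set a muscle isoform beside its common partner (RefSeq, build GRCm38.p6, 250 bases before and 50 after the annotated start, in the direction of transcription). Capitals mark letters of the E-box (CANNTG), TATA box (TATAAA), ETS site (CCGGAA), MEF2 site and NRF1 site, found on either strand. The MEF2 search asked for CTA followed, after any 4 bases, by its reverse complement, and the NRF1 search for GCGC followed, after any 2 bases, by the same letters again.
Cox7a1, chr7:30183921-30184220, plus strand: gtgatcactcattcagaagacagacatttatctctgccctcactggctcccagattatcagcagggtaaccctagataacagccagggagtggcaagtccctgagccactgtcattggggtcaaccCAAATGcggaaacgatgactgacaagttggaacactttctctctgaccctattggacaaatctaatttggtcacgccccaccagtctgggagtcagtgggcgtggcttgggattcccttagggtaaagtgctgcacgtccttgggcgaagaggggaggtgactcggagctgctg
Cox8b, chr7:140900397-140900696, minus strand: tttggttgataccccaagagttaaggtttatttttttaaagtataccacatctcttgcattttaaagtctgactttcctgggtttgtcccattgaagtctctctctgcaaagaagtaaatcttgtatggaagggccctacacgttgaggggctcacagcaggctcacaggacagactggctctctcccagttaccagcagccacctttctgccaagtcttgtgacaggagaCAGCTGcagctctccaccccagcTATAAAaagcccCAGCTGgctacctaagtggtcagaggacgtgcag
Cox7a2, chr9:79759804-79760103, minus strand: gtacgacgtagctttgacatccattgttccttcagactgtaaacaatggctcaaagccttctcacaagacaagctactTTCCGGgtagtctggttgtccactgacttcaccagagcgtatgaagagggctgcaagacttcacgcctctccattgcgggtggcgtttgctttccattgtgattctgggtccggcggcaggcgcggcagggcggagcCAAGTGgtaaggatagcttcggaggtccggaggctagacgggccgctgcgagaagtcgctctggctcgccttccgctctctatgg
Cox8a, chr19:7217567-7217866, minus strand: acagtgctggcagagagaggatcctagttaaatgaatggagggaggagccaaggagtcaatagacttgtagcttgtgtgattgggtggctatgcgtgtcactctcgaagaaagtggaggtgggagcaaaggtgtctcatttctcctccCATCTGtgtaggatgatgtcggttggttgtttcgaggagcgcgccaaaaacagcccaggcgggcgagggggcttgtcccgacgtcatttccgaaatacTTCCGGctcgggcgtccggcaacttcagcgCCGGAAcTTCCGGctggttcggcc

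The promoters of both muscle isoforms held E-box letters and no ETS letters, 1 match in Cox7a1 and 2 in Cox8b, each CAGCTG in the latter, which also held TATAAA. In Cox8b the TATAAA letters and 1 of the CAGCTG matches lie after the annotated start, at bases 5 and 17. Those of Cox7a2 and Cox8a held 1 and 3 matches to the ETS letters and 1 E-box match each. None of the 4 held the MEF2 or NRF1 letters. RefSeq promoters were matched for 32 of the 45 genes, and a gene with several starts counts if any 1 of its promoters holds the letters. The ETS letters stood in 14 of the 32 (43.8%) and in 16.7% of 27025 genes with a promoter in the table, and the NRF1 letters in 9 of 32 (28.1%) and 7%. E-box letters were found in 68.8% of the 32 and 75% of all, TATA letters in 6.25% and 15.7%, and MEF2 letters in 3.12% and 4.23%. The letters of YY1 (AAGATGGC) stood in 9.38% of the 32 and 3.19% of all, of ERR (AAGGTCA) in 3.12% and 5.38%, and of the hypoxia response element (ACGTG, which can overlap an E-box) in 21.9% and 21.8%. These matches describe the letters in these windows only.

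Other paralogue pairs of the same machinery differed between tissues in other ways. Slc25a4, the adenine nucleotide translocator of heart and muscle, made up 68.9% and 68.6% of the pair Slc25a4 and Slc25a5 in heart, 20.2% and 16.7% in liver and between 67.4% and 74.2% in fibroblasts, so that fibroblasts resembled heart in the share but not in the level, with 1390 and 1340 FPKM in heart and 340 to 450 FPKM in fibroblasts. Cox6b2, known from testis, was highest in liver, with 117 and 144 FPKM or 7.49% and 9.28% of its pair with Cox6b1, and lowest in 2i-MEFs, at 3.91 and 6.02 FPKM. Ndufa4l2, a hypoxia-induced relative of Ndufa4, had 25.7 and 10.3 FPKM in 2i-MEFs, 18.2 and 16.6 FPKM in heart and at most 5.03 FPKM elsewhere. The testis forms Cyct, at most 1.71 FPKM, and Cox7b2, at most 0.57 FPKM, were near 0 throughout. Slc25a31, the translocator known from germ cells, had 18.7 FPKM in the 2i-MEFs labelled Dnmt3b KO, 1.19 FPKM in those labelled Dnmt3a KO and at most 2.39 FPKM elsewhere.

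The remaining nuclear genes of the pathway also had medians above 0 for WT heart against WT liver, where 20.6% of all genes were at least 2-fold higher and 21.1% lower. The median log2 ratio was 0.85 for 19 further complex I genes, with 4 at least 2-fold higher (Ndufv3, Ndufa13 and Ndufc1 foremost) and none lower, and 0.83 for 12 further complex V genes, with Atp5d and Atp5g3 higher and Atpif1, the inhibitor of the ATP synthase, lower. It was 0.4 for 3 further complex III genes, with Uqcrh higher, and 0.28 for 6 further complex IV genes, 2 of them at 0 in both libraries, with Ndufa4l2 and Cox7a2l higher and Cox6b2 lower. For 9 electron carriers and nucleotide exchangers, 4 of them under 1 FPKM in both libraries, it was 0.21, with Slc25a4 and Cycs higher and Ucp2, an uncoupling protein, lower at 264 FPKM against 1130 FPKM. The 38 assembly factors, which help to build the complexes and are not part of them, had a median of 0.07, with 2 genes (Ndufaf5 and Cox20) at least 2-fold higher.

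Genes that feed the chain had medians above 0 too, in the comparison where 20.6% of all genes were at least 2-fold higher and 21.1% lower. The median log2 ratio of WT heart to WT liver was 0.58 for 13 citric acid cycle genes, with Idh3a and Ogdh among those at least 2-fold higher and Suclg2 lower, and 0.76 for 13 genes of fatty acid oxidation, with Cpt1b, Acadl and Acadm at least 2-fold higher. Cpt1b, the muscle form of the enzyme that admits fatty acids to mitochondria, had 211 FPKM in WT heart and 4.75 FPKM in WT liver. The 18 nuclear regulators of respiratory genes had a median of -0.5, with 5 at least 2-fold higher and 2 lower. Ppargc1a, the coactivator PGC-1 alpha, had 15.2 and 14.3 FPKM in heart, 1.45 and 1.52 FPKM in liver and at most 2.11 FPKM in fibroblasts. Esrrg, an orphan nuclear receptor that works with it, had 11.4 and 12 FPKM in heart and at most 0.457 FPKM elsewhere. Nrf1 went the other way, with 14 and 17 FPKM in heart and 51.1 and 46.4 FPKM in liver. The 12 hypoxia response genes had a median of 1.18, with 6 at least 2-fold higher, and the 8 proliferation genes a median of -1.76, with 7 lower.

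The same lists were compared between WT MEFs and WT heart, where 17.5% of all genes were at least 2-fold lower and 18.3% higher. At least 2-fold lower in MEFs were 16 of 19 further complex I genes, all 3 of complex III, 11 of 12 of complex V, 2 of 6 of complex IV (4 reached 1 FPKM), 5 of 9 carriers and exchangers (5 reached 1 FPKM), 11 of 13 citric acid cycle genes, 7 of 13 fatty acid oxidation genes, 9 of 38 assembly factors and 7 of 18 regulators. Of the lists just named, fatty acid oxidation alone had a gene at least 2-fold higher in MEFs, Cpt1a, the form found in most tissues, with 37.6 FPKM in MEFs and 17.1 FPKM in heart. Of the 12 hypoxia response genes, 8 were at least 2-fold lower in MEFs and 2 higher, Adm and P4ha1. Proliferation genes were at least 2-fold lower in MEFs for 7 of 8, and their part in the levels of the 45 genes was not tested.

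Between genotype labels the 45 genes hardly differed in heart. None was 2-fold apart, where 2.18% of all genes were higher and 1.85% lower in the library labelled Dnmt3a KO, and the median log2 ratio was 0.04. The ratios lay between -0.30 for Sdha and 0.28 for Cox4i2. Cox7b, an X-linked complex IV subunit, had 766 FPKM against 647 FPKM in WT, and Cox7a1 277 against 237 FPKM. The next lowest were Ndufa10 and Ndufs8, both at -0.15 on the log2 scale. Of the markers of other cells, 5 of 10 for hepatocytes and 1 of 9 for erythroid cells were at least 2-fold lower in the labelled heart, and their part in these values was not tested. With 1 library for each condition, the spread between embryos of one genotype is unknown, and no difference of this size can be set against it.

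In liver the median was again 0.04, and 1 gene was 2-fold apart. Cox6a2 stood at 2.47 FPKM in WT and 0.324 FPKM with the label, where 1.39% of all genes were higher and 2.3% lower by 2-fold. These values stand for about 31 and 4 reads, a ratio of 0.131 per depth with a 95% counting interval of 0.0337 to 0.372. Muscle genes moved with it: 13 skeletal muscle markers summed to 306 FPKM in WT liver and 116 FPKM in the liver labelled Dnmt3a KO, and 8 of them were at least 2-fold lower, among them Acta1 with 28.4 and 0.624 FPKM and Myh3 with 9.96 and 0.248 FPKM. The cardiomyocyte markers summed to 91.5 and 26.4 FPKM, and 4 of 13, Actc1 foremost, were at least 2-fold lower while 2, Myl2 and Tnni3, were higher. The part of these muscle transcripts in the value of Cox6a2 was not tested. Of the more abundant genes, Sdha was higher in the labelled library with 355 against 253 FPKM, Cox7a2 with 759 against 597 FPKM and Uqcrc2 with 311 against 246 FPKM. Cox4i2 and Cox8b were lower, on about 12 and 7 and about 2 and 1 reads. The erythroid sums given above differed between these libraries too, as did the fibroblast markers, at 551 FPKM in WT and 298 FPKM with the label, and the hepatocyte markers, at 27900 and 18300 FPKM, and their part in these values was not tested.

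In MEFs with DMSO the median of the 45 genes was a little lower in the library labelled Dnmt3a KO. The median log2 ratio was -0.15 against 0.04 over all genes. None of the 45 was 2-fold apart, where 4.24% of all genes were higher and 2.02% lower. Atp5o had 278 FPKM against 388 FPKM in WT and Ndufa5 137 against 178 FPKM, while Ndufs1 had 47.9 against 39.9 FPKM and Ndufb3 47.6 against 40.2 FPKM. Cox4i2 was the highest ratio, with 2.52 against 1.27 FPKM or about 34 and 12 reads, and Cox6a2 the lowest, with 1.06 against 1.97 FPKM. Fibroblast markers summed to 9970 FPKM in the labelled library and 12700 FPKM in WT, skeletal muscle markers to 68.9 and 32 FPKM, and smooth muscle and pericyte markers to 2740 and 2080 FPKM, and their part in these values was not tested. With GSK126 the median was -0.04, and 1 gene was 2-fold higher, where 2.88% of all genes were higher and 2.95% lower. That gene was Cox6a2, with 6.71 FPKM in the labelled library against 1.4 FPKM for WT, about 68 and 13 reads and a ratio of 4.79 with a 95% counting interval of 2.62 to 9.45. With GSK126, fibroblast markers summed to 6720 FPKM in the labelled library and 9740 FPKM in WT. Skeletal muscle markers summed to 44.9 and 36.6 FPKM, and the part of these markers in the value of Cox6a2 was not tested. Cox4i2 had 3.23 against 1.47 FPKM, a ratio of 2.2 per depth with a counting interval of 1.17 to 4.32, and with DMSO its ratio was 1.99 with an interval of 1 to 4.22, which reaches no difference.

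GSK126 left most of the 45 genes within a small range of DMSO. In WT MEFs none was 2-fold apart, where 2.17% of all genes were higher and 1.59% lower, and the median was -0.02. The lowest ratio was that of Cox7b, with 178 FPKM against 295 FPKM in DMSO, and the highest that of Ndufa1, with 226 against 198 FPKM. In MEFs labelled Dnmt3a KO the median was 0.08, and 1 gene was 2-fold higher, where 2.01% of all genes were higher and 3.25% lower. Cox6a2 had 6.71 FPKM with GSK126 and 1.06 FPKM with DMSO, a ratio of 6.34 per depth with a 95% counting interval of 3.47 to 12.5. Uqcrq had 479 against 361 FPKM and Atp5o 348 against 278 FPKM. Cox7b was lower here too, with 178 against 237 FPKM, as were Ndufs1 with 36.6 against 47.9 FPKM and Cox7a1 with 2.22 against 3.35 FPKM. The 13 cardiomyocyte markers summed to 17 FPKM with DMSO and 20.9 FPKM with GSK126 in these cells, with 3 of 13 at 0 under GSK126, and the 13 skeletal muscle markers to 68.9 and 44.9 FPKM. Of the 13 cardiomyocyte markers, 1 was at least 2-fold higher, Myl2 with 0.293 and 1.95 FPKM, while others such as Tnni3, with 2 and 0.832 FPKM, had the opposite order. The fibroblast markers summed to 9970 and 6720 FPKM and the proliferation genes to 229 and 145 FPKM. The part of these in the value of Cox6a2 was not tested. The 4 comparisons among MEFs share libraries, and the single library labelled Dnmt3a KO with GSK126 carries both high ratios of Cox6a2.

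**Figure D4:**
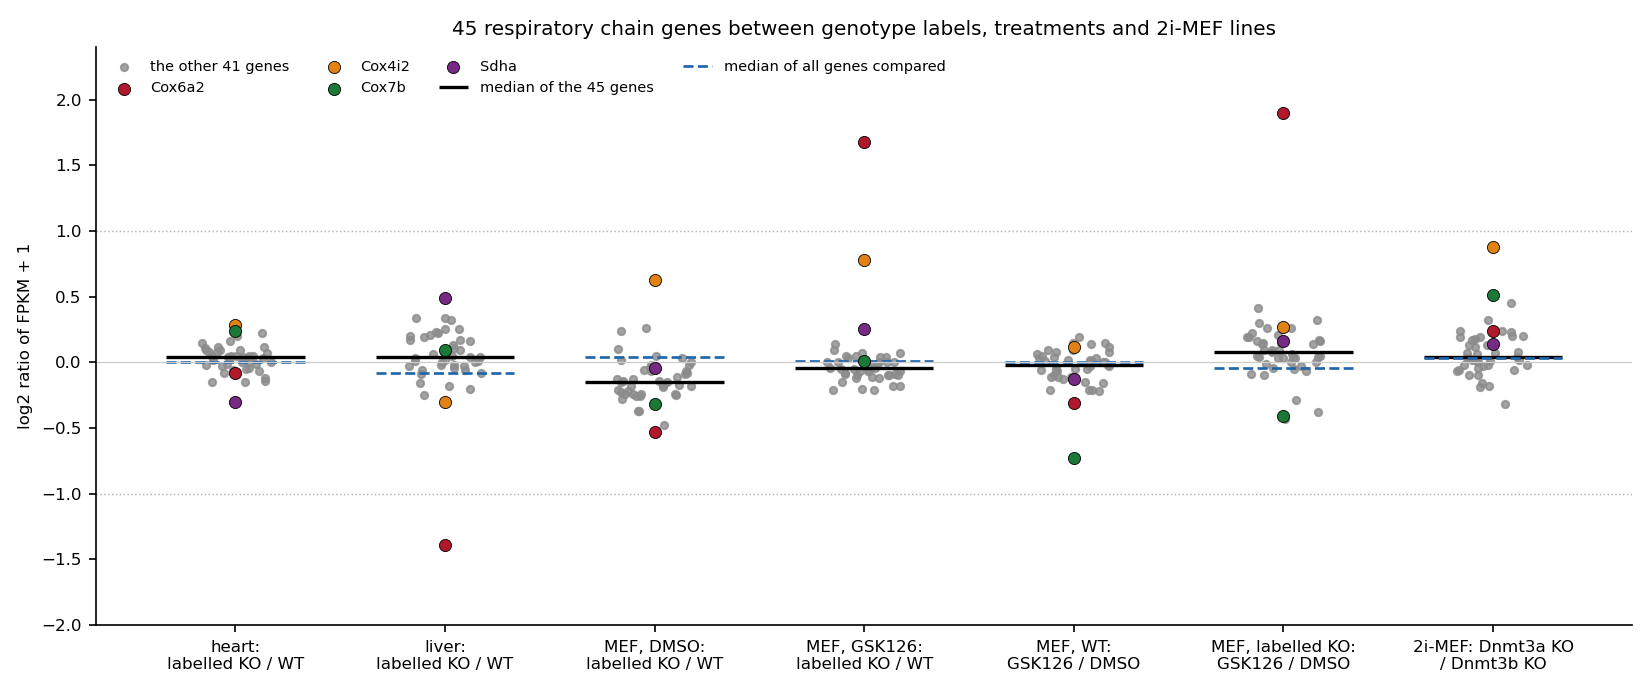
Log2 ratio of FPKM + 1 for the 45 genes in 7 comparisons of genotype labels, treatments and 2i-MEF lines; each point is 1 gene, the black bar their median, the dashed line the median over every gene that reached 1 FPKM on one side or the other, and the dotted lines mark 2-fold. Cox6a2 crosses the 2-fold lines in 3 comparisons, at -1.39, 1.68 and 1.90, and the other 44 genes do not cross them.

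The 2i-MEF lines without Dnmt3a and without Dnmt3b had similar levels of the 45 genes. None was 2-fold apart, where 5.52% of all genes were higher and 3.49% lower in the Dnmt3a KO, and the median was 0.04. Cox4i2 had 1.22 FPKM in the Dnmt3a KO and 0.205 FPKM in the Dnmt3b KO, which rests on about 7 reads and 1 read and has a counting interval of 0.755 to 265 for the ratio. Cox7b had 286 against 200 FPKM and Ndufv1 121 against 88.1 FPKM. The lowest ratios were those of Uqcrc2, with 111 against 139 FPKM, Uqcrq with 416 against 476 FPKM and Atp5o with 277 against 314 FPKM. Each line is 1 library of cells from a different deletion, so the deleted gene and the line cannot be told apart.

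Over the 10 libraries, a few genes had a pattern close to that of each tissue isoform by Pearson's r of log2(FPKM + 1), among 12664 genes that reached 5 FPKM in at least 1 library. The nearest to Cox6a2 were Nebl, Camk2a and Trim63, with r between 0.9855 and 0.9907, to Cox7a1 Mdh1, Bik and Gja5, with r between 0.9964 and 0.998, to Cox8b, among others, 5430431A17Rik and Myo18b, with r of 0.9996 and 0.9993, and to Cox4i2 Phactr2, Cux1 and Shroom3, with r between 0.9838 and 0.9912. The 2 heart libraries hold the 2 highest values of all these genes, and the libraries of a tissue are not independent points.

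Other genes share sequence with some of the 45. Stretches of at least 75 bases at 95% identity to another annotated gene were found for 16 of them, and covered more than 50% of the longest transcript for Ndufs3 (83.8%) and Atp5o (59.1%). None was found for the 4 tissue isoforms. Exons of 13 genes overlap exons on the opposite strand, and since the use of strand in counting is not given in the sources used here, such reads could not be separated. For Cox6a2 the overlap is 70 bases with Itgad, which had at most 0.117 FPKM in any library.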

How the data were processed

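RNA-seq (polyA, 75-base single reads) was analysed in 10 libraries of mouse embryonic heart, liver, MEFs and 2i-MEFs; the other 16 samples were left out. Per the methods, the authors removed adapters (cutadapt), aligned to mm10 and GENCODE M15 (tophat, Bowtie2), required a MAPQ of 20 or more and unique placement, and computed FPKM with cufflinks 2.2.1; the deposited table holds these FPKM values without counts. The methods name tophat 2.1.1 and Bowtie2 2.3.2, and the submitters' processing notes name TopHat2 2.1.0 and Bowtie2 2.2.5.

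The 45 genes, all gene lists and all rules for named genes were chosen with earlier results of these data known. Rows of one symbol were summed (155 of 52609 rows repeat a symbol). Depth and reads were estimated from genes with 1 transcript of at least 1500 bases, with the fragment length, 202 bases, at which low values of all libraries came closest to whole reads (201 to 203 bases in single libraries). Of the low values, 97.7% to 99.1% then lay within 0.1 of a whole read, against 20% for evenly spread values; the steps were tested on simulated data. The longest transcript of GENCODE M21 was used for reads.

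The 11 comparisons used the log2 ratio of FPKM + 1, which understates changes of low genes, and counted genes at least 2-fold apart; genes with at least 1 FPKM in at least 1 of the 2 libraries formed the background. With 1 library a condition no p-value was computed. Counting intervals are exact binomial, at 95%, and with the limit of 3 reads cover counting error only, as the reads carry no molecular identifiers. Named genes were the paralogue pairs, the highest and lowest gene of each complex in WT heart, the 3 highest and 3 lowest ratios of each comparison, the 3 genes most like each tissue isoform, up to 3 genes per list, and Dnmt3a; Ndufa1, Sdha, Sdhb, Sdhd, Cyc1, Ndufv1, Ndufs1, Cox7a2 and some genes of other lists were also described after their values were seen. Some genes that these rules name are not reported here. Python 3.11.15, numpy 2.4.6, pandas 2.3.3, scipy 1.17.1 and blastn 2.17.0 were used. As alternatives, 0.1 was added in place of 1, ratios were centred on the all-gene median, repeated symbols were represented by their highest row, and a 1.5-fold threshold, no filter on low values, and shares scaled to full transcript length were tried.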

Additional observations from a re-analysis of the deposited data

Results flagged for a closer look

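The genes Sdha, Cox4i2 and Cox6a2 were picked out because their ratios had opposite directions in 2 settings of the same contrast and both were at least 1.2-fold from 1, a limit chosen after the values were seen. With 1 library a condition, the difference between the settings was not tested in any of them. Sdha had a log2 ratio of the library labelled Dnmt3a KO to WT of -0.30 in heart (356 and 439 FPKM) and of 0.49 in liver (355 and 253 FPKM). Cox4i2 had 0.28 in heart (20.7 and 16.8 FPKM) and -0.30 in liver (0.517 and 0.87 FPKM, about 7 and 12 reads), and the 95% counting intervals of the ratios, 0.988 to 1.53 and 0.198 to 1.64, both include no difference. Cox6a2 had a log2 ratio of GSK126 to DMSO of -0.31 in WT MEFs (1.4 and 1.97 FPKM, about 13 and 17 reads, with a 95% counting interval of 0.317 to 1.55 for the ratio) and of 1.90 in MEFs labelled Dnmt3a KO (6.71 and 1.06 FPKM, about 68 and 13 reads). Cox6a2 also met the limit for MEFs labelled Dnmt3a KO against WT. That log2 ratio was -0.53 with DMSO (1.06 and 1.97 FPKM) and 1.68 with GSK126 (6.71 and 1.4 FPKM). The 95% counting interval with DMSO, 0.24 to 1.17 for the ratio, includes no difference.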

How the results depend on the processing

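Heart and liver of a genotype share a title number whose meaning the labels do not give. Each heart to liver ratio was taken within that number, and a paired fit over both genotypes as 2 pairs was not run. No median or count reversed under any alternative. Centring on the median of all genes raised the median log2 ratio of WT heart to WT liver from 0.83 to 0.96 and the genes at least 2-fold higher from 12 to 20; it changed the count from 13 to 15 in the organs labelled Dnmt3a KO and from 17 to 12 for MEF against liver. A 1.5-fold threshold gave 32 genes for heart against liver in WT, 28 with the label, 29 for MEF against liver, 1 for the label in MEFs with DMSO and 2 with GSK126, 1 for GSK126 in WT MEFs and 1 in 2i-MEFs, where 30%, 33.6%, 35.2%, 11.9%, 7.58%, 5.17% and 12.5% of all genes passed it in the same direction. A pseudocount of 0.1 gave 2 genes for the label in MEFs with GSK126 and 1 in 2i-MEFs. Scaling to full transcript length moved the heart shares of Cox6a2 to 31.2% and 29.7% and of Cox7a1 to 15.6% and 18.3%. It moved those of Cox8b to 2.12% and 2.37%. The other 34 shares stayed within their counting intervals. Among them, the shares of Cox8b in the 6 fibroblast libraries were 0, which scaling cannot move. The choice of row changed none of the values. Without the filter on low values, the share of all genes at least 2-fold apart fell in all 11 comparisons, for example from 41.6% to 11.6% for WT heart against WT liver. The spread between embryos or cultures of one condition is unknown, and low isoform values rest on few reads.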
